A study of Mus musculus with 6 samples.

Results

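The protocadherin genes were followed in the transcriptome of oligodendrocyte precursor cells (OPCs) that carry a deletion in Disc1. Members were all genes of the table whose symbol begins with Pcdh, and 70 of the 18211 genes did. They comprised 14 genes of the alpha cluster, 22 of the beta cluster, 22 of the gamma cluster and 12 single genes outside the clusters. OPCs were isolated from C57BL/6 mice at postnatal day 7 by panning on antibody to Pdgfrα, and their polyadenylated RNA was sequenced in 6 libraries without culture. The wildtype group had 3 libraries and the DISC1-Δ3 group had 3. DISC1-Δ3 mice carried NG2-CreERTM and 1 floxed copy of Disc1 exon 3 (exon3 fl/+), so that the NG2 promoter drove an inducible recombinase that could remove exon 3 from 1 allele only. Wildtype mice were without CreERT, and both groups received tamoxifen by gavage on 4 days, from postnatal day 4 to 7. Whether a library came from 1 mouse or from pooled mice, and whether the 3 libraries of a group came from separate animals, is not given in the sources used here, so the p-values measure the spread between these libraries, which may be technical.

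Protocadherins are the largest branch of the cadherin family of calcium-dependent adhesion proteins. In the clustered genes, each variable exon has its own promoter and encodes the extracellular, transmembrane and proximal cytoplasmic part of 1 isoform; in the alpha and gamma clusters this exon is spliced to constant exons that all members share, whereas a beta gene is a single coding exon. CTCF and cohesin bring distant enhancers to the chosen promoters, and the mixture of isoforms gives a neuron the surface identity by which it recognises its own branches. The single genes include the δ1 and δ2 protocadherins, which have their own homophilic binding and cytoplasmic partners, and Pcdh15, a long cadherin best known from the tip links of inner-ear hair cells and widely used as a transcript marker of OPCs.

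Total expected counts were 13716626 to 16417221 per library. Disc1, the targeted gene, had an RPKM (reads per kilobase of transcript, scaled to the library total) of 3.51, 3.34 and 3.81 in wildtype against 2.86, 2.44 and 2.85 in DISC1-Δ3, and its log2 fold change was -0.45 ± 0.088 (SE; adjusted p = 5.28e-04). DISC1-Δ3 replicate 3 stood apart from the other libraries of its group. Its gene counts differed from theirs by 4.99 and 5.39 (chi-square divided by its degrees of freedom), against 1.80 to 2.97 for the other pairs within a group. All 10 OPC markers passed the filter; 7 rose and 1 fell, and their summed RPKM was 550 to 570 in wildtype and 711 to 741 in DISC1-Δ3. Transcripts of other cell types were present and also moved between the groups. Microglia, mature oligodendrocyte and astrocyte markers had a higher summed RPKM than OPC markers in both groups. All 10 microglia markers fell, from a summed RPKM of 11427 to 11659 in wildtype to 8064 to 8360 in DISC1-Δ3. Of 10 neuron markers 8 rose, Slc17a6 among them, which passed the filter only through DISC1-Δ3, so 7 of the other 9. Their sum went from 372 to 373 in wildtype to 456 to 480 in DISC1-Δ3. Pericyte and smooth muscle markers rose in 7 of 8, from 164 to 175 up to 230 to 237, and endothelial markers in 4 of 8, from 155 to 165 up to 205 to 207. Astrocyte markers fell in 6 of 8 and rose in 1 (1965 to 2005 in wildtype, 1888 to 1906 in DISC1-Δ3), mature oligodendrocyte markers fell in 6 of 9 (2517 to 2550 and 2312 to 2347), and none of 6 fibroblast markers passed the threshold (30.5 to 33.7 and 35.7 to 39.6). No marker of these lists was at 0 in all libraries. The part of these cells in the protocadherin levels was not tested, and in bulk RNA fewer cells of a type cannot be told apart from less RNA per cell.

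The DISC1-Δ3 libraries differed from wildtype in 14 of the 48 protocadherin genes that could be tested, and 11 of the 14 were higher. The test took genes that reached an RPKM of 0.5 in 3 or more of the 6 libraries, and no member passed that filter through 1 group only. The calls come from the quasi-likelihood test of edgeR at an adjusted p of 0.05 (Benjamini-Hochberg, over all 13792 genes tested). Of all tested genes 39.9% were called, 20.4% higher and 19.5% lower, so the members' share of 29.2% was below the background of the table. Their direction was less even than that of the table: 29 of the 48 had a fitted log2 fold change above 0, with a median of 0.10, against 51.0% and a median of 0.0075 over all tested genes. The RPKM of the groups did not overlap in 21 of the 48, with DISC1-Δ3 above in 19, beside 52.0% of all tested genes without overlap. RPKM is scaled by library totals, and the direction of the genes without overlap was not counted over the table. When libraries were scaled by their totals alone, 16 members were higher and 2 lower, beside 4126 higher and 1836 lower in the table. The 22 members that were not tested were 13 alpha and 9 beta genes.

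**Figure D1:**
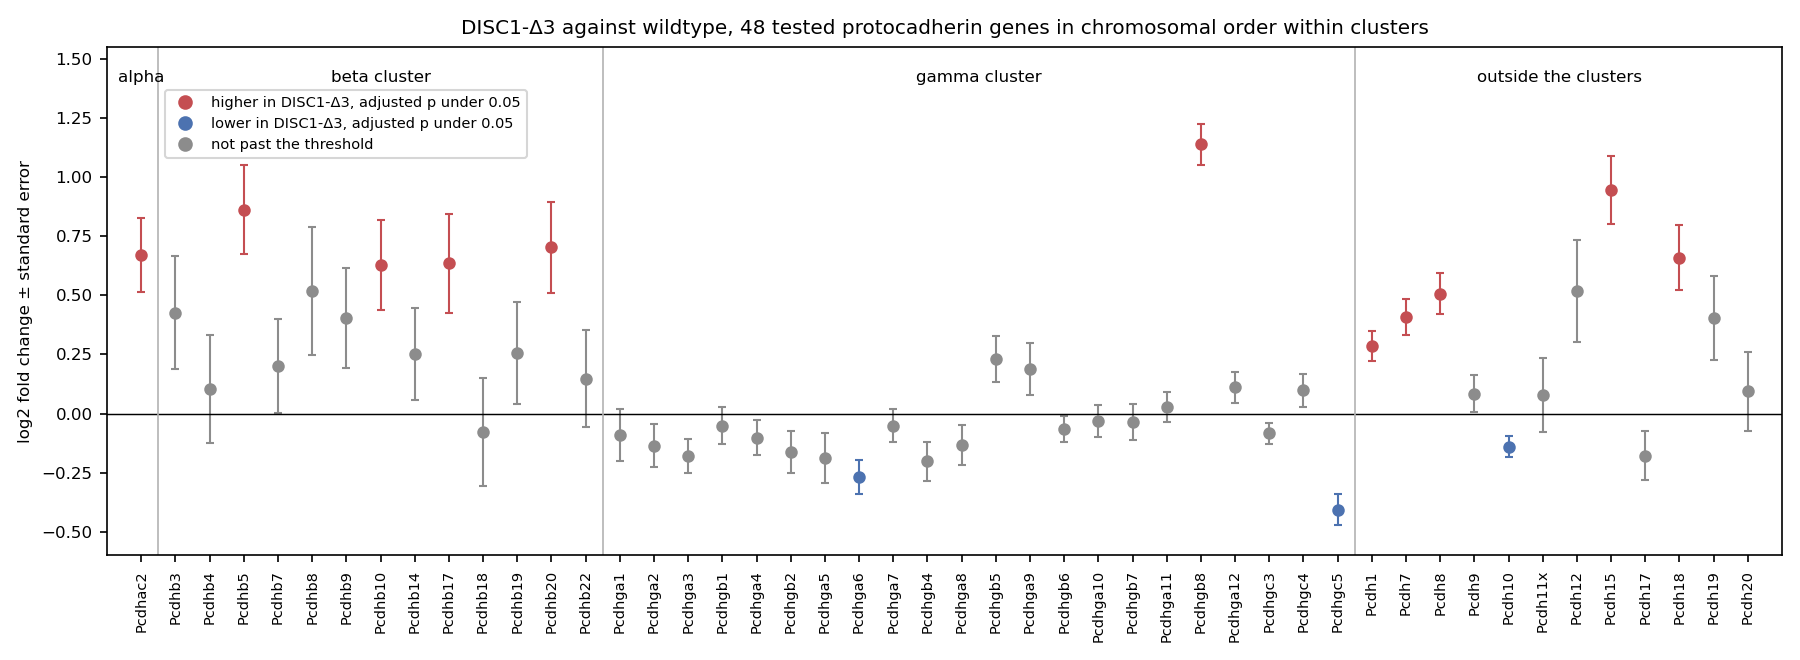
Log2 fold change of DISC1-Δ3 over wildtype (vertical axis) with its standard error for the 48 tested protocadherin genes, grouped by cluster; red and blue points passed the threshold as higher and lower. Pcdhgb8 lies highest at 1.14, nearly all gamma genes lie close to 0, and 12 of 13 beta genes lie above it.

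Outside the clusters, 5 of the 12 single genes were higher in the DISC1-Δ3 libraries and 1 was lower, and all 12 passed the filter. The share called was 50%, beside 39.9% over the table, 20.4% higher and 19.5% lower. Their median log2 fold change was 0.34. All expected counts of these genes were whole numbers, with no sign of reads divided with another gene. The 250 bases before the start site are shown for the single genes that changed and had a promoter in the RefSeq table used (mouse genome GRCm38.p6), so that the promoters of genes that rose can be read beside that of Pcdh10. Each is written 5′ to 3′ on the gene's strand. Capitals mark CTTTGA, the core of the TCF/LEF motif at which β-catenin acts, and TATAAA, the core of the TATA box, both searched on either strand; the motifs do not overlap. TATAAA was added after the sequences were seen.
Pcdh7, chr5:57717831-57718080, strand +: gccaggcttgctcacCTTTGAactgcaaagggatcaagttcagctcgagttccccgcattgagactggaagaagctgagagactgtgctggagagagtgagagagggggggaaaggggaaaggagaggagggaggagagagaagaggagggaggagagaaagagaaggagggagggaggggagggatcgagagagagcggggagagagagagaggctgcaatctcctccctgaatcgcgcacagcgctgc
Pcdh8, chr14:79771313-79771562, strand -: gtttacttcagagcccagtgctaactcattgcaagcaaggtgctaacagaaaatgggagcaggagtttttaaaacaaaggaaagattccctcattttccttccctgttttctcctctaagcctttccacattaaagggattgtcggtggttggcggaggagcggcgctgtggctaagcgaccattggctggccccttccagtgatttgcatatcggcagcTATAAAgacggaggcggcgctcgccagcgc
Pcdh10, chr3:45378148-45378397, strand +: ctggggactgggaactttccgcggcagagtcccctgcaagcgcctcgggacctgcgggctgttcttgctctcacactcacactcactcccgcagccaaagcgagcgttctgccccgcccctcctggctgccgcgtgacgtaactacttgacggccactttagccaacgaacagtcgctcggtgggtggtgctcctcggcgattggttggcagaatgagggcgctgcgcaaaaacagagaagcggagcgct
Pcdh15, chr10:73821617-73821866, strand +: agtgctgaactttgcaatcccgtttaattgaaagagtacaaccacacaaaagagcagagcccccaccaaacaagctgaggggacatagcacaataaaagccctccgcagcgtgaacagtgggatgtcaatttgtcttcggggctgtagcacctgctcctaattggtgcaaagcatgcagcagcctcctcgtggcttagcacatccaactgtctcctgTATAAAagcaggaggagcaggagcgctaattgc
Pcdh18, chr3:49757317-49757566, strand -: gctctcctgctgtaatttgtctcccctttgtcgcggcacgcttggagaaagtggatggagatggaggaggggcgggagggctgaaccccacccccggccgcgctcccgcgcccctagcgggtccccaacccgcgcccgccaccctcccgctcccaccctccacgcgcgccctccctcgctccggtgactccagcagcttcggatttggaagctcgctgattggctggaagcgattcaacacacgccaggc
CTTTGA occurred once, in the Pcdh7 window, with its first base 235 bases before the start. It was in none of the other members' windows (9 members had one), and 13.8% of the 32851 promoter windows in the mouse table hold it. TATAAA occurred once before Pcdh15, 33 bases from the start, and once before Pcdh8, 30 bases from the start, and in 12.4% of all windows. The windows of Pcdh15 and Pcdh8 had a GC content of 50.4% and 51.2%, those of Pcdh7, Pcdh10 and Pcdh18 58.4%, 63.2% and 68.0%, and the median of all windows was 52.4%. The windows of Pcdh15 and Pcdh7 lie inside the annotated genes, and that of Pcdh18 in part, since other transcripts of these genes begin further upstream.

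Pcdh15 had the largest rise of the single genes. Its RPKM was 0.57, 0.61 and 0.62 in wildtype against 1.0, 1.17 and 1.44 in DISC1-Δ3. Every DISC1-Δ3 library lay above every wildtype library, and the wildtype libraries were nearly alike while those of DISC1-Δ3 were spread. The ratio of the means was 2.01, and the log2 fold change was 0.95 ± 0.144 (edgeR, adjusted p = 4.24e-05). Without DISC1-Δ3 replicate 3, the highest library, it was 0.77 (adjusted p = 3.62e-05). Of the 10 OPC markers, among which Pcdh15 was not counted, 7 also rose and 1 fell. Of the 6 tested genes that work with Pcdh15 at the tip link of hair cells, none rose and 3 fell. The share called was 50%, beside 39.9% over the table, 20.4% higher and 19.5% lower. With library totals 1 rose and 3 fell, beside 4126 higher and 1836 lower in the table. With limma at a pseudocount of 1, 1 rose and 2 fell, beside 3983 higher and 1774 lower. The same split was seen at a pseudocount of 0.1 (3965 and 1763 in the table). Cdh23, the cadherin that forms the upper part of the link, had a log2 fold change of -0.44, Myo7a, the myosin that anchors it, of -0.49, and the scaffold gene Whrn of -0.40. Tmie, Cib2, Lhfpl5 and Ush1g, chosen after their values were seen, lay the other way. Of the 6 tested genes, 3 had a fitted log2 fold change above 0. Cib2 had an RPKM of 17.33, 16.13 and 16.25 in wildtype against 18.39, 19.93 and 22.58 in DISC1-Δ3, without overlap. Its log2 fold change was 0.22 (edgeR, adjusted p = 0.134), and it was the gene called higher with library totals and with limma. Lhfpl5 was at 0.62 (edgeR, adjusted p = 0.195). Tmie was at 0.35 (edgeR, adjusted p = 0.112) and was called without DISC1-Δ3 replicate 3 (0.51, adjusted p = 0.00926). Ush1g was not tested, at an RPKM of 0.08, 0.06 and 0.13 in wildtype against 0.65, 0.45 and 0.47 in DISC1-Δ3, and was called higher in both of the alternatives that took it in. None of 4 hair-cell markers in the table was expressed highly enough to be tested, and their summed RPKM was at most 0.46.

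The δ1 protocadherins Pcdh1 and Pcdh7 also rose. Pcdh1 had an RPKM of 13.66, 13.54 and 12.57 in wildtype against 16.60, 17.96 and 16.63 in DISC1-Δ3. Its groups did not overlap, and its log2 fold change was 0.28 ± 0.063 (edgeR, adjusted p = 0.00163). Pcdh7, whose cytoplasmic tail binds protein phosphatase 1, had 4.26, 3.98 and 4.18 in wildtype against 5.58, 5.67 and 6.70 in DISC1-Δ3. Its groups were likewise separate, with a log2 fold change of 0.41 ± 0.077 (edgeR, adjusted p = 3.90e-04). The other δ1 genes were not called. Pcdh9 had 5.01, 5.16 and 5.43 in wildtype against 5.50, 5.20 and 6.41 in DISC1-Δ3, and a log2 fold change of 0.08 that was 0.00022 without DISC1-Δ3 replicate 3. Pcdh11x, an X-linked gene, had 0.97, 0.80 and 0.65 in wildtype against 0.84, 0.87 and 1.02 in DISC1-Δ3, with a log2 fold change of 0.08 ± 0.157.

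Of the δ2 protocadherins, Pcdh8 and Pcdh18 rose and Pcdh10 was lower by a small margin. Pcdh8, an activity-regulated gene in neurons whose product takes N-cadherin from the membrane, had an RPKM of 4.61, 4.04 and 4.37 in wildtype against 6.17, 6.58 and 6.67 in DISC1-Δ3. Its log2 fold change was 0.51 ± 0.088 (edgeR, adjusted p = 1.61e-04), with no overlap. Pcdh18 had 1.47, 1.15 and 1.41 in wildtype against 2.2, 1.96 and 2.57 in DISC1-Δ3, also without overlap, and a log2 fold change of 0.66 ± 0.138 (edgeR, adjusted p = 9.58e-04). Pcdh10, which recruits the WAVE complex to cell contacts and was the most abundant single gene, had 28.15, 26.90 and 27.55 in wildtype against 27.32, 26.46 and 27.14 in DISC1-Δ3. Its groups overlapped in RPKM, and the fitted log2 fold change was -0.14 ± 0.045 (edgeR, adjusted p = 0.0186). That call was lost with library totals in place of TMM scaling (-0.06, adjusted p = 0.292), without wildtype replicate 1 (-0.12, adjusted p = 0.0664) and without DISC1-Δ3 replicate 2 (-0.15, adjusted p = 0.0520).

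Pcdh17 and Pcdh19, the other δ2 genes, did not pass the threshold. Pcdh17, which marks connections between cortex and basal ganglia, had an RPKM of 3.28, 3.46 and 2.89 in wildtype against 2.86, 2.52 and 3.62 in DISC1-Δ3. DISC1-Δ3 replicate 3 was the highest library of all and the other DISC1-Δ3 libraries the lowest. The log2 fold change was -0.18 ± 0.105 (edgeR, adjusted p = 0.189), and without that library it was -0.33 and was called (adjusted p = 0.00222). Pcdh19, the X-linked gene of a human epilepsy, had 0.71, 0.79 and 0.56 in wildtype against 1.10, 0.70 and 1.06 in DISC1-Δ3. The groups overlapped through DISC1-Δ3 replicate 2 and the log2 fold change was 0.40 ± 0.178 (edgeR, adjusted p = 0.0805). Without that library it was called (0.58, adjusted p = 0.00586).

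The remaining single genes were low and not called. Pcdh12, a protocadherin of endothelial cells, had an RPKM of 0.52, 0.53 and 0.34 in wildtype against 0.81, 0.66 and 0.63 in DISC1-Δ3. Its groups did not overlap, but the log2 fold change of 0.52 ± 0.217 missed the threshold (edgeR, adjusted p = 0.0662); without DISC1-Δ3 replicate 3 it passed (0.59, adjusted p = 0.0391). Of the 8 endothelial markers 4 also rose, as given above. Pcdh20 had 0.77, 0.84 and 0.98 in wildtype against 1.08, 0.99 and 0.89 in DISC1-Δ3, which overlapped, with a log2 fold change of 0.10 ± 0.167. Exons of Pcdh7, Pcdh8, Pcdh10 and Pcdh19 overlap an annotated gene on the opposite strand (4932441J04Rik, Gm9748, 1700027H10Rik and Gm26851), and since the library protocol does not state that strand was kept, reads of the 2 cannot be told apart.

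**Figure D2:**
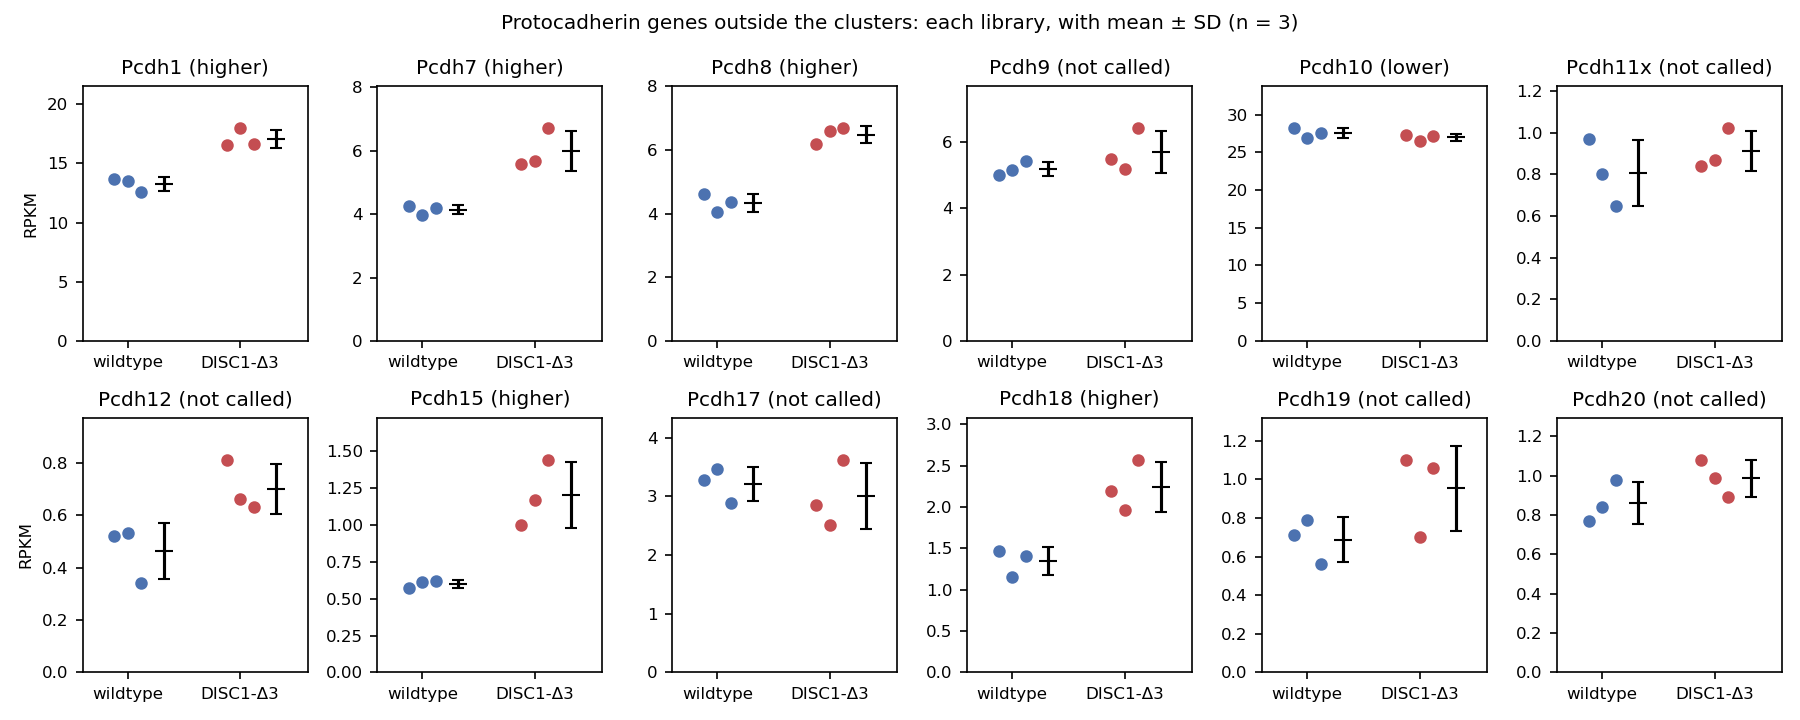
RPKM (vertical axes, each from 0) of the 12 protocadherin genes outside the clusters in the 3 wildtype (blue) and 3 DISC1-Δ3 (red) libraries, with the mean ± SD of each group beside the points. The groups are separate for 6 of the 12 (Pcdh1, Pcdh7, Pcdh8, Pcdh12, Pcdh15 and Pcdh18), beside 52.0% of all tested genes, while those of Pcdh10 overlap.

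The single genes together had 344 ± 8.99 CPM in wildtype and 391 ± 18.2 CPM in DISC1-Δ3 (SD, n = 3; CPM are expected counts scaled to the library total), a ratio of 1.14, or 1.07 with TMM scaling. In the wildtype libraries their order by mean RPKM began with Pcdh10 at 27.5 ± 0.625 and Pcdh1 at 13.3 ± 0.598. Pcdh9 at 5.20 ± 0.213 lay above Pcdh8 at 4.34 ± 0.286 and Pcdh7 at 4.14 ± 0.144, and the last 2 did not differ beyond their spread. Pcdh17 followed at 3.21 ± 0.291 and Pcdh18 at 1.34 ± 0.170. Pcdh20, Pcdh11x, Pcdh19, Pcdh15 and Pcdh12 lay between 0.863 ± 0.107 and 0.463 ± 0.107, and neighbours among them overlapped, except that every library of Pcdh15 was above every library of Pcdh12. In the DISC1-Δ3 libraries Pcdh8 and Pcdh7 (6.47 ± 0.266 and 5.98 ± 0.622) stood above Pcdh9 (5.70 ± 0.630) in the mean. Values of both overlapped those of Pcdh9. Pcdh15 (1.203 ± 0.222) stood at the head of the low group.

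The clusters lie side by side on the plus strand of chromosome 18. In GRCm38.p6 the alpha genes span 36930285 to 37188897, the beta genes 37264998 to 37521419 and the gamma genes 37661775 to 37841873. All 14 alpha genes share 3 exons (2860 bases) and all 22 gamma genes share another 3 (2119 bases), while beta genes share none. In the Pcdhgc3 transcript the shared exons make up 45.2% of 4687 bases, beside a variable exon of 2568. The deposited counts show this structure. Of expected counts above 0, 1.41% of the alpha values and 1.52% of the gamma values were whole numbers (within 0.001), against 90.6% of beta values, 100% of values outside the clusters and 90.2% in the whole table. Counts and RPKM together implied gamma transcripts of 4335 to 4937 bases, which is the variable exon with the shared ones. A read of 50 bases from a shared exon does not tell which gamma gene it came from, and its division between members was made by the authors' counting, so differences within a cluster are uncertain to that extent and the sum over a cluster is less affected.

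**Figure D3:**
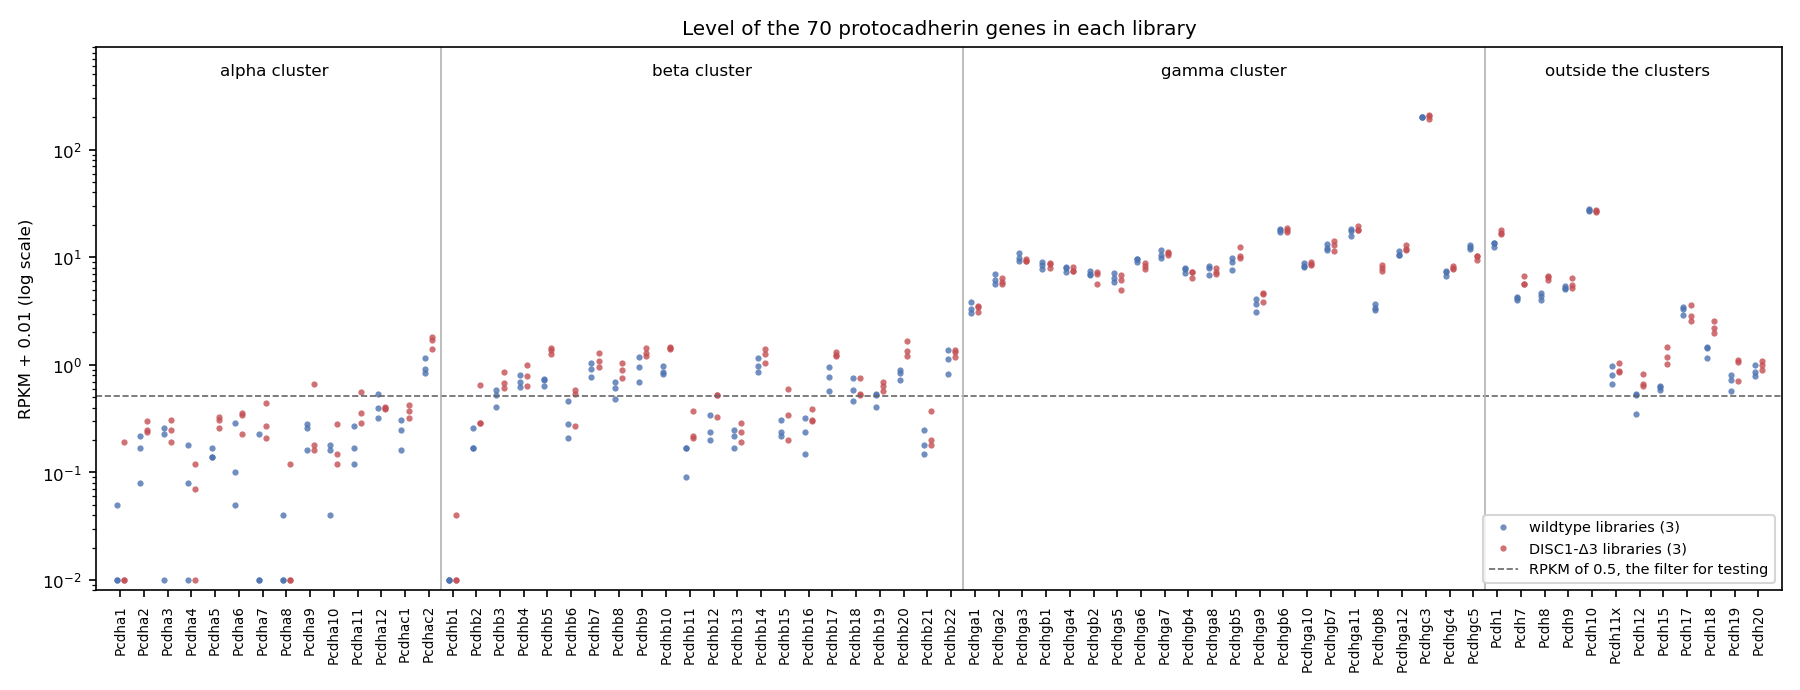
RPKM of the 70 protocadherin genes (log axis, 0.01 added) in the 3 wildtype (blue) and 3 DISC1-Δ3 (red) libraries, in chromosomal order within clusters; the dashed line is the filter at an RPKM of 0.5. Pcdhgc3 lies near 203 in both groups, the other gamma genes between 3.04 and 19.64, and beta and alpha genes below 2.

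The gamma cluster carried most protocadherin RNA of these libraries, and Pcdhgc3 most of the gamma cluster. Which cells of the libraries carried these reads was not tested. Pcdhgc3, a C-type isoform whose cytoplasmic part binds Axin1, the scaffold of the β-catenin destruction complex, had an RPKM of 202.69, 202.58 and 202.49 in wildtype against 206.03, 208.38 and 192.64 in DISC1-Δ3. The wildtype libraries lay inside the range of the DISC1-Δ3 libraries. Its log2 fold change was -0.08 ± 0.044 (edgeR, adjusted p = 0.145), and with library totals it was -0.0007. It held 52.2% ± 0.632 of the gamma reads in wildtype and 51.4% ± 1.10 in DISC1-Δ3 (SD, n = 3), and 43.5% ± 0.564 and 41.4% ± 1.28 of the summed RPKM of all members. It was 7.36 times the next member, Pcdh10. The next gamma genes, Pcdhgb6 (18.31, 17.97 and 17.05 in wildtype, 18.74, 17.26 and 17.94 in DISC1-Δ3) and Pcdhga11 (18.28, 15.68 and 17.48 in wildtype, 19.64, 17.75 and 18.00 in DISC1-Δ3), overlapped with each other and between the groups, with log2 fold changes of -0.06 and 0.03. Pcdhgc3 overlaps BC037039 on the opposite strand.

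Of the 22 gamma genes, all tested, 1 was higher and 2 were lower, and the median log2 fold change was -0.07. The share called was 13.6%, against 39.9% over the table. The 19 others lay between -0.20 and 0.23. The gamma sum was 1761 ± 19.3 CPM in wildtype and 1789 ± 45.8 CPM in DISC1-Δ3, a ratio of 1.02 that turned to 0.960 with TMM scaling, so no direction is given for it. By RPKM, which is scaled by library totals, 11 of the 22 had the higher mean in DISC1-Δ3, while 16 of 22 had a fitted log2 fold change below 0.

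Pcdhgb8 stood out from its neighbours. Its RPKM was 3.34, 3.22 and 3.70 in wildtype against 7.39, 8.02 and 8.50 in DISC1-Δ3, and the lowest DISC1-Δ3 library was far above the highest wildtype library. The ratio of the means was 2.33 and the log2 fold change 1.14 ± 0.086 (edgeR, adjusted p = 8.90e-09), the largest of the 48. RefSeq lists the mouse gene as a transcribed pseudogene (chromosome 18, 37761801 to 37840489, plus strand). Its share of the gamma reads went from 0.868% ± 0.0605 to 2.00% ± 0.187. The genes on either side of it, Pcdhga11 and Pcdhga12, had log2 fold changes of 0.03 and 0.11 and were not called; they are given because they are its neighbours, chosen after the value of Pcdhgb8 was seen.

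The 2 gamma genes that fell were Pcdhgc5, the last gene of the cluster and a C-type isoform, and Pcdhga6. Pcdhgc5 had an RPKM of 12.92, 12.04 and 12.48 in wildtype against 10.29, 10.22 and 9.37 in DISC1-Δ3. All DISC1-Δ3 libraries were below all wildtype libraries, with a log2 fold change of -0.41 ± 0.065 (edgeR, adjusted p = 7.57e-05), and its share of the gamma reads went from 3.23% ± 0.0746 to 2.54% ± 0.0704. The third C-type gamma gene, Pcdhgc4, which neurons need to survive, had 6.64, 7.37 and 7.24 in wildtype against 8.26, 8.01 and 7.85 in DISC1-Δ3; it is named as the remaining C-type gene, after its values were seen. Its groups did not overlap, but its log2 fold change of 0.10 was not called (edgeR, adjusted p = 0.289). Pcdhga6 had 9.57, 8.99 and 9.68 in wildtype against 8.82, 7.77 and 8.24 in DISC1-Δ3, without overlap, and a log2 fold change of -0.27 ± 0.071 (edgeR, adjusted p = 0.00571). That call was lost with limma at either pseudocount (-0.17 and -0.18, adjusted p = 0.0785 and 0.0754).

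The beta cluster was expressed at a low level and was higher in the DISC1-Δ3 libraries. No beta gene exceeded an RPKM of 1.66 in any library. The sum over all 22, which does not depend on the filter, was 38.4, 38.0 and 37.4 CPM in wildtype and 54.7, 50.7 and 55.2 in DISC1-Δ3. The groups were well apart, at 37.9 ± 0.514 and 53.5 ± 2.44 (SD, n = 3), a ratio of 1.41 (1.33 with TMM scaling). By RPKM, which is scaled by library totals, all 22 had the higher mean in DISC1-Δ3. For Pcdhb1 this rested on an expected count of 1 in DISC1-Δ3 replicate 2 alone. For Pcdhb18 the means were 0.590 in wildtype and 0.597 in DISC1-Δ3, and the fitted log2 fold change was -0.08. The share of all genes with a higher mean RPKM was not counted. Scaling by library totals moved the median log2 fold change of all tested genes to 0.09. In 10 of the 22 the groups did not overlap, beside 52.0% of all tested genes. The 22 include 9 genes that did not pass the filter, and the 52.0% covers only genes that did. Of the 13 tested, 4 were called, a share of 30.8% that was below the 39.9% called over the table. All 4 were higher, where 20.4% of the table was called higher and 19.5% lower. Of the 13, 12 had a log2 fold change above 0, with a median of 0.41.

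Pcdhb5 rose most among the beta genes. It had an RPKM of 0.73, 0.63 and 0.72 in wildtype against 1.36, 1.41 and 1.24 in DISC1-Δ3, without overlap, and a log2 fold change of 0.86 ± 0.188 (edgeR, adjusted p = 0.00139). Pcdhb20 had 0.72, 0.88 and 0.83 in wildtype against 1.34, 1.20 and 1.66 in DISC1-Δ3, again apart, and a log2 fold change of 0.70 ± 0.194 (edgeR, adjusted p = 0.00778). Pcdhb17 had 0.56, 0.76 and 0.94 in wildtype against 1.23, 1.21 and 1.31 in DISC1-Δ3 and a log2 fold change of 0.64 ± 0.209 (edgeR, adjusted p = 0.0221). Its wildtype libraries were spread, and the call was lost without wildtype replicate 1 (0.48, adjusted p = 0.103) or wildtype replicate 2 (0.64, adjusted p = 0.0617). Pcdhb10 had 0.84, 0.97 and 0.82 in wildtype against 1.43, 1.40 and 1.47 in DISC1-Δ3 and a log2 fold change of 0.63 ± 0.191 (edgeR, adjusted p = 0.0145), and the call was lost without wildtype replicate 3 (0.58, adjusted p = 0.0539). DESeq2 called neither Pcdhb17 nor Pcdhb10 (adjusted p = 0.0690 and 0.0652). These genes rest on few reads, between 24 expected counts for Pcdhb17 in wildtype replicate 1 and 87 for Pcdhb20 in DISC1-Δ3 replicate 3.

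Other beta genes of similar level were not called. Pcdhb9 had an RPKM of 1.18, 0.69 and 0.95 in wildtype against 1.42, 1.21 and 1.27 in DISC1-Δ3, without overlap, at a log2 fold change of 0.41 (edgeR, adjusted p = 0.139). Pcdhb22 had 1.35, 1.12 and 0.82 in wildtype against 1.30, 1.36 and 1.17 in DISC1-Δ3, which overlapped, at 0.15 (edgeR, adjusted p = 0.605). The 9 tested beta genes that were not called ranged from -0.08 to 0.52. The 9 untested ones reached an RPKM of at most 0.64.

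The alpha cluster was the lowest, and of its genes only Pcdhac2, of the C type, could be tested. Pcdhac2, which serotonergic axons need to spread evenly over their targets, had an RPKM of 0.83, 0.91 and 1.14 in wildtype against 1.68, 1.40 and 1.82 in DISC1-Δ3. The groups did not overlap, the ratio of the means was 1.70 and the log2 fold change 0.67 ± 0.157 (edgeR, adjusted p = 0.00242). The alpha sum was 15.9, 15.7 and 12.9 CPM in wildtype and 26.1, 23.1 and 25.3 in DISC1-Δ3, a ratio of 1.68 (1.58 with TMM scaling), again without overlap. Pcdhac2 held 34.98% ± 10.25 of the alpha reads in wildtype and 34.6% ± 3.06 in DISC1-Δ3. Of the 13 untested alpha genes none exceeded an RPKM of 0.66. Pcdha12 had 0.39, 0.53 and 0.31 in wildtype against 0.40, 0.38 and 0.39 in DISC1-Δ3, and Pcdhac1 had 0.30, 0.24 and 0.15 and then 0.36, 0.31 and 0.41. The first overlapped between the groups and the second did not. Of the 14 alpha genes 12 had the higher mean RPKM in DISC1-Δ3, a share that was not counted over all genes. In 5 of the 14 the groups did not overlap, beside 52.0% of all tested genes. The 52.0% covers only genes that passed the filter, which 13 of the 14 alpha genes did not. Several marker lists moved the same way as the alpha and beta sums. Rises were called in 7 of 10 OPC markers, with 1 fall, and in 7 of 9 neuron markers without Slc17a6. They were also called in 7 of 8 pericyte and smooth muscle markers and 4 of 8 endothelial markers. Most microglia, astrocyte and mature oligodendrocyte markers fell. The part of any of these cells in the alpha and beta sums was not tested.

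**Figure D4:**
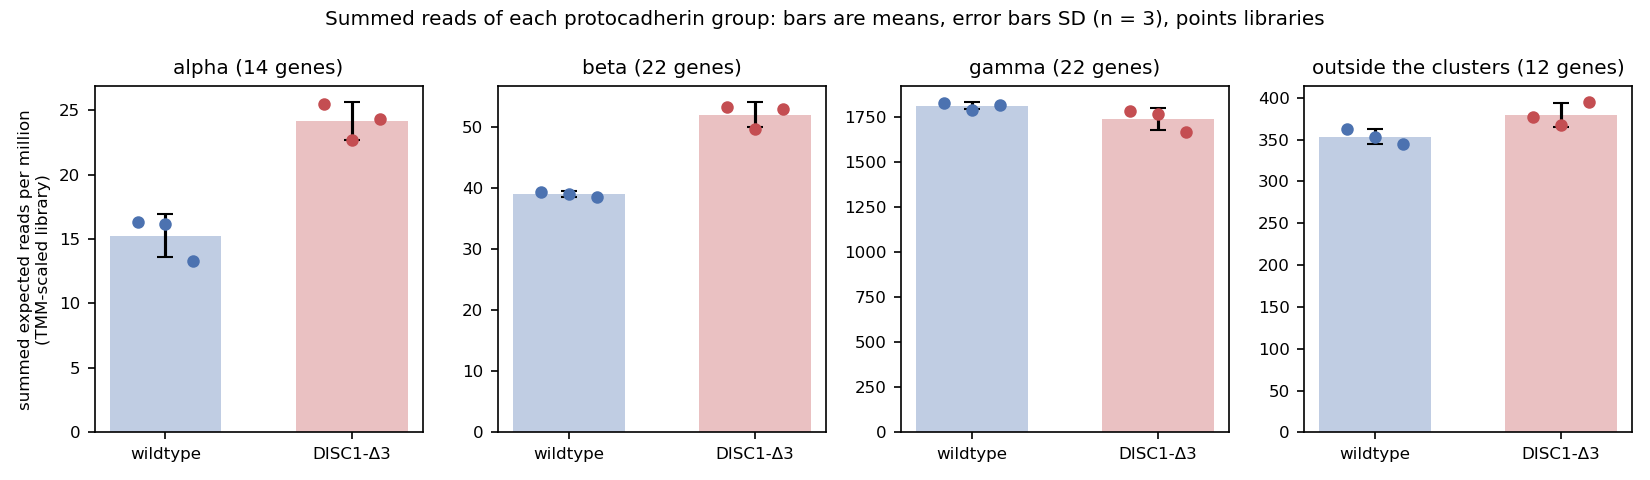
Summed CPM of the TMM-scaled library (vertical axes, each from 0) for the genes of each cluster and for those outside the clusters; bars are means, error bars SD (n = 3) and points libraries. The alpha and beta sums of the DISC1-Δ3 libraries lie above those of all wildtype libraries, the outside sum lies slightly above, and the gamma sum lies slightly below on this scale.

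Genes that set protocadherin choice were mostly not called. Of 22 genes for CTCF, cohesin, its loaders and release factors, DNA methylation and histone methylation, all tested, 3 rose and 3 fell (27.3% called, beside 39.9% over the table), with a median log2 fold change of -0.08. Dnmt1 and Dnmt3a, the maintenance and de novo DNA methyltransferases, were at 0.20 and 0.19, and the cohesin subunit gene Rad21 at 0.18. Nipbl, the cohesin loader, was at -0.55, Zfp143, a factor at CTCF-bound promoters, at -0.50, and the cohesin subunit gene Stag2 at -0.26. Nipbl had an RPKM of 4.33, 4.10 and 3.91 in wildtype against 2.33, 2.56 and 4.03 in DISC1-Δ3, with the replicate 3 value inside the wildtype range, and was called with and without that library. Stag2, whose groups overlapped, was called under 8 of 16 alternatives and was at -0.41 without DISC1-Δ3 replicate 3. Without DISC1-Δ3 replicate 3, 14 of the 22 were called, 3 higher and 11 lower, beside 2918 higher and 3314 lower of 13792 in the table. With library totals 6 were higher and 2 lower, beside 4126 and 1836 in the table.

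Genes whose products bind protocadherins or act below them moved in both directions. Of 28 tested, 6 rose and 9 fell (53.6% called, beside 39.9% over the table), with a median log2 fold change of -0.05. Wasf1, a WAVE subunit gene of neurons, was at 0.52, and Wasf2, its widely expressed relative, at -0.40 (RPKM 63.43, 62.32 and 60.87 in wildtype, 50.52, 51.56 and 49.73 in DISC1-Δ3). The kinase genes Ptk2 (FAK) and Ptk2b (PYK2), whose products the constant parts of alpha and gamma protocadherins bind and inhibit, were at 0.28 and -0.46. Ptk2b had 14.92, 14.83 and 15.74 in wildtype against 11.43, 12.25 and 11.33 in DISC1-Δ3 (edgeR, adjusted p = 1.57e-05), and Ptk2 had 8.82, 7.30 and 7.74 and then 10.14, 9.76 and 10.34 (adjusted p = 0.00599). Nlgn2, a neuroligin gene, was at 0.26 and the kinase gene Rock1 at -0.47. Rock1 had 3.28, 3.35 and 2.85 in wildtype against 1.94, 2.09 and 3.27 in DISC1-Δ3, which overlapped. It was called under 11 of 16 alternatives and was at -0.74 without DISC1-Δ3 replicate 3. The count was 9 without wildtype replicate 1, beside 2413 higher and 2222 lower of 13792 in the table. It was 7 without wildtype replicate 2 (2193 and 2149 in the table) and 9 without wildtype replicate 3 (2250 and 2234). In each of these fits the share called was not above that of the table. With library totals 8 were higher and 4 lower, beside 4126 and 1836 in the table.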

How the data were processed

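RNA of OPCs from 3 wildtype and 3 DISC1-Δ3 libraries was sequenced by single-end reads of 50 bases. The authors deposited 1 table of genes with expected counts and RPKM per library; the submitters' processing notes name Bowtie2 2.2.5 and mm10, the counter and annotation are not given in the sources used here, and the study names DESeq2 for its comparison. The 4 columns of the authors' group averages were not used.

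Expected counts were rounded, scaled by TMM and tested with edgeR 4.0.16 in R 4.3.3 by the quasi-likelihood method, with genotype as the only term, on genes that reached an RPKM of 0.5 in 3 or more libraries. The log2 fold change is DISC1-Δ3 over wildtype with its standard error. P-values are two-sided and adjusted over all 13792 tested genes. Sums over clusters are descriptions with no test. The 16 alternatives included DESeq2 1.42.0 and limma 3.58.1 on log2(RPKM + 1), other filters and scalings, a replicate block and leaving out each library. The fit was tested on simulated data.

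Deviations of same-numbered libraries had correlations of 0.069, 0.0234 and -0.0561, so little shared deviation was seen. Whether these libraries were paired by litter or handling is not given in the sources used here, and the correlations cannot settle it. In each library 3 reads correspond to 0.183 to 0.219 CPM, a limit of counting error only. All 70 members matched RefSeq by gene ID and symbol; shared exons come from GENCODE of the same build. The members and lists were chosen with earlier results of these data known. Named were all genes outside the clusters, called clustered genes, the 3 with the highest mean RPKM in each cluster, up to 3 called genes per direction of each other list, and Disc1.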

Additional observations from a re-analysis of the deposited data

How the results depend on the processing

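Under the 16 alternatives, 12 to 21 protocadherin genes were called. The calls over the table moved as well. They were fewest without wildtype replicate 2 (2193 higher and 2149 lower of 13792) and most without DISC1-Δ3 replicate 3 (2918 and 3314). Calls were lost for Pcdhb17 and Pcdhb10 with DESeq2, for Pcdh10 and Pcdhga6 with limma on either pseudocount, for Pcdh10 with library totals, and for Pcdhb17, Pcdhb10 and Pcdh10 when single libraries were left out; the other 10 called members were called under every alternative. Leaving out 1 library gave 12 to 19 calls, and without DISC1-Δ3 replicate 3 all 14 calls were kept and 5 added (Pcdh17, Pcdh12, Pcdhgb5, Pcdhgb2 and Pcdhga3). Without a filter on low values 21 of 70 were called, beside 2898 higher and 2855 lower of 18172 in the table. With the replicate block all 14 calls were kept and none was added (14 called), and the table had 5429 calls. With library totals Pcdhga12, Pcdh12, Pcdhgb5, Pcdh19 and Pcdhgc4 were newly called. Pcdh19 was also called without a filter on low values and without DISC1-Δ3 replicate 2. Among the members named by the rule given above, no other call changed. Leaving out 1 library gave 4 to 14 calls among the regulators and 7 to 16 among the partners, while the table moved over the range given above.

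Among the tested members 11, none of them called, turned in sign under an alternative, and the cause was not tested. The 4 that are named were Pcdhgb6, Pcdh11x, Pcdhb22 and Pcdhga11. Values were, for Pcdhgb6, 0.018 with library totals and 0.015 and 0.016 with limma at a pseudocount of 1 and 0.1. Leaving out 1 library gave -0.069 (without wildtype replicate 3) to 0.23 for Pcdh11x, -0.031 (without wildtype replicate 3) to 0.31 for Pcdhb22, and -0.040 (without DISC1-Δ3 replicate 1) to 0.071 for Pcdhga11, which was -0.034 without wildtype replicate 2. With TMM scaling in place of library totals the log2 ratios of the sums were 0.41 for beta, 0.10 outside the clusters, -0.060 for gamma and -0.034 for gamma without Pcdhgc3. Library totals moved the median of all tested genes to 0.09. Depth limits the alpha and beta genes most, since 22 of their 36 fell under the filter.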

Other observations

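Of 18 tested classical cadherins and catenins, Cdh1 and Cdh3 passed the filter only through DISC1-Δ3, the group where they are high, and are given by their values alone. Of the other 16, 10 rose and 1 fell (68.8% called, median log2 fold change 0.29), beside 39.9% called over the table, 20.4% higher and 19.5% lower. Cdh1, the epithelial E-cadherin, had an RPKM of 0.12, 0.09 and 0.04 in wildtype against 3.45, 3.73 and 4.08 in DISC1-Δ3. Cdh3, the placental P-cadherin, had 0.43, 0.28 and 0.30 and then 3.75, 3.60 and 3.43. Cdh22 had 4.48, 3.99 and 4.34 and then 10.68, 10.12 and 10.36, a log2 fold change of 1.31 ± 0.081. Cdh10 was at -0.29 and was called under 9 of 16 alternatives.

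Of 10 tested large cadherins 6 rose and 1 fell (70% called, beside 39.9% over the table), with a median log2 fold change of 0.18. The calsyntenin gene Clstn2 had an RPKM of 1.64, 1.73 and 1.70 in wildtype against 5.96, 5.94 and 6.34 in DISC1-Δ3 (1.74 ± 0.084; edgeR, adjusted p = 2.18e-11), and Clstn3 had 7.32, 7.15 and 7.68 and then 16.52, 15.89 and 14.01 (0.99 ± 0.076). The planar polarity cadherin genes Celsr3 and Celsr1 were at 0.49 and -0.27. All groups named with their libraries here were without overlap.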
